A study of Mus musculus with 9 samples.

Results

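The WASP and WAVE proteins are nucleation-promoting factors: they bring actin monomers to the Arp2/3 complex and switch it on, so that a new filament branches from the side of an existing one. N-WASP, encoded by Wasl, is opened by the GTPase Cdc42 and membrane lipids. The WAVE proteins, encoded by Wasf1, Wasf2 and Wasf3, are held inactive inside a regulatory complex with a Cyfip, an Nckap, an Abi and the small Brk1 subunit until the GTPase Rac binds the Cyfip subunit. Cortactin, encoded by Cttn, binds Arp2/3 and filaments and stabilises the branch. The genes of this machinery were taken by symbol from the gene models: Wasf1, Wasf2, Wasf3, Wasl, Cttn, Brk1, Cyfip1, Cyfip2, Nckap1 and Abi1. They are 10 of the 35896 genes with a transcript in the files, and 10 of 10 passed the filter on low counts.

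Poly-A RNA was sequenced from E14, a single mouse embryonic stem cell line grown on gelatin in serum medium, in 9 libraries that form 3 groups of 3. Cells labelled Control +LIF2i stayed in self-renewal medium, with the cytokine LIF, the MEK inhibitor PD0325901 at 1 µM and the GSK3β inhibitor CHIR99021 at 1 µM. Cells labelled Control 72h -LIF2i lost all 3 agents for 72 h and differentiated spontaneously, and cells labelled CK666 72h -LIF2i lost them for the same time with the Arp2/3 inhibitor CK666 present at 80 µM. CK666 was dissolved in DMSO, and no label states that controls were given DMSO, so drug and solvent cannot be told apart. The groups are called self-renewing, withdrawn and CK666-treated here. The questions are which of these genes change on exit from self-renewal, and whether they change when the complex they activate is inhibited.

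The libraries held 16894327 to 22550952 estimated counts, and each of the 3 replicate 1 libraries stood apart from replicates 2 and 3 on the second principal component, which carried 23.3% of the variance against 53.7% for the first. Genes with an estimated count above 0 numbered 15690, 17295 and 17605 in replicate 1 of self-renewing, withdrawn and CK666-treated cells. The replicate 2 and 3 libraries held 18166 to 18749. In replicate 1, genes with an effective length under 1000 bases were lower than in replicates 2 and 3, by a median log2 difference of -0.94 in self-renewing, -0.69 in withdrawn and -0.68 in CK666-treated cells (n = 1538 genes). Genes over 3000 bases were higher, by 0.30, 0.14 and 0.08 (n = 3553 genes). The summed level of 10 embryonic stem cell markers, in TPM (a level per transcript length, scaled to the same sum in every library), was 6580 to 11768 in self-renewing, 4080 to 4999 in withdrawn and 4396 to 6497 in CK666-treated cells. On withdrawal 8 of the 10 fell by edgeR, among them Klf4 (log2 fold change -5.80), Tfcp2l1 (-5.68) and Esrrb (-4.95), while Utf1 rose by 2.68 and Pou5f1, at 1199 to 1866 TPM in the 9 libraries, was not called. In bulk RNA, fewer cells of a type and less RNA per cell cannot be told apart.

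Withdrawal of LIF2i changed 5 of the 10 activator genes, 2 upwards and 3 downwards. Wasf1 and Cyfip2 rose, and Wasf2, Cyfip1 and Abi1 fell, each at an edgeR adjusted p under 0.05, the threshold for every call here. Across all 14648 genes tested, 40.7% were called in this comparison, 21.1% upwards and 19.7% downwards, so 5 of 10 is near the share of all genes. The median log2 fold change of the 10 members was -0.21, against 0.01 over all genes. The 5 called genes were also the 5 whose withdrawn and self-renewing libraries did not overlap, a property of 40.7% of all genes. Markers of other cell types moved between the same groups: of 9 neural markers tested, 3 rose (Neurod1, Map2 and Elavl3) and 4 fell (Sox1, Tubb3, Elavl4 and Stmn2), with a median log2 fold change of 0.80, while the summed TPM of the 11 on the list was 216 to 374 in self-renewing and 90.3 to 134 in withdrawn cells. The summed TPM of 8 endoderm markers was 5.41 to 9.07 and 10.6 to 34.1 in the same groups, with Gata6, Sox17, Sox7, Foxa2 and Pdgfra under 1 TPM in every library, that of 6 mesoderm markers 4.27 to 8.36 and 4.77 to 10.9, that of 7 trophoblast markers (Krt7, Krt8 and Krt18 rose and Tfap2c fell) 65.5 to 104 and 176 to 389, and that of 7 fibroblast markers 4.77 to 7.32 and 24.5 to 31.2. Neurog2, Dcx, Mixl1, Mesp1, Tbx6, Cdx2, Elf5, Lum and Postn were under 1 TPM in every library, and the part of these cells in the results was not tested. With CK666 present during withdrawal, 0 of 10 differed from withdrawn controls by edgeR, where 2.05% of genes were called, 1.15% upwards and 0.894% downwards. The CK666 background itself moved with the analysis: edgeR called 300 genes with the replicate number as a block and 0 without it (1251 at an unadjusted p under 0.05). With the block it called 1811 without replicate 1 and 0 without replicate 3. On withdrawal, 3 of the 10 members and 24.0% of all genes were called without the block.

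**Figure D1:**
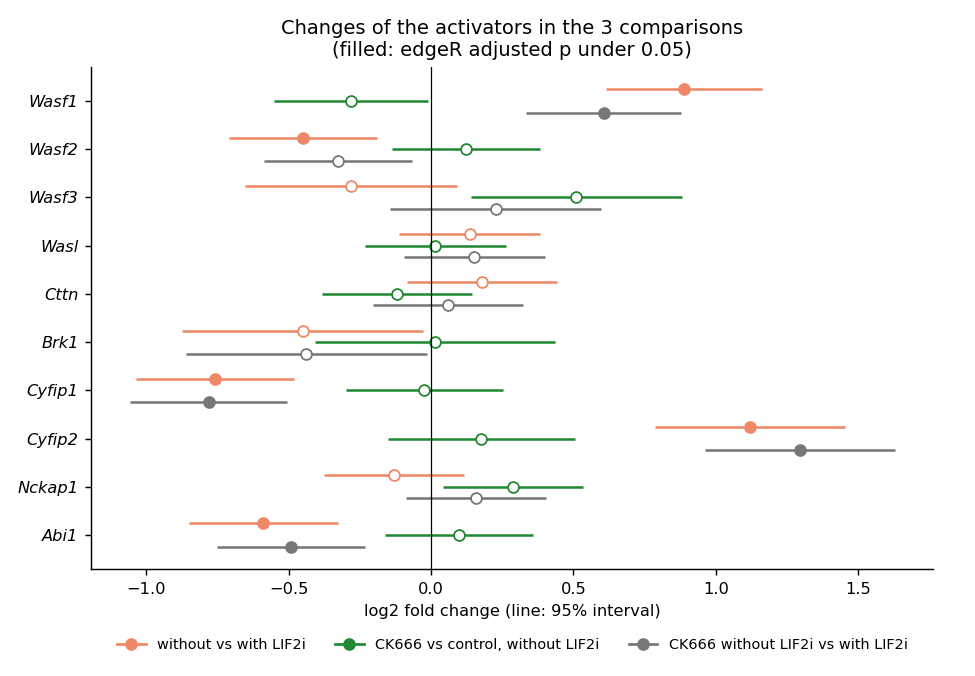
Log2 fold changes of the 10 activator genes (x axis, log2 scale, bars are 95% intervals from the edgeR fit) for each of the 3 comparisons. Wasf1 and Cyfip2 lie to the right of 0 and Cyfip1, Abi1 and Wasf2 to the left after withdrawal, while the CK666 estimates lie between -0.28 and 0.51.

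Of the 3 WAVE genes, Wasf1 was called upwards and Wasf2 downwards on withdrawal, and Wasf3 was not called. The 95% intervals of Wasf2 (-0.71 to -0.19) and Wasf3 (-0.65 to 0.09) overlapped, and the difference between them was not tested. Wasf1 (chr10:40883475-40938570, plus strand, GRCm38) encodes WAVE1, the form best known from neurons. Its CPM (read counts after TMM scaling to a common library size) were 47.8, 33.2 and 37.8 in self-renewing replicates 1, 2 and 3, 77.7, 66.3 and 73.8 in withdrawn, and 71.9, 49.1 and 60.0 in CK666-treated cells. Every library without LIF2i was above every self-renewing one, and the withdrawn and CK666-treated libraries overlapped. Within replicate numbers, Wasf1 was lower with CK666 in 3 of 3 pairs (estimate -0.28, adjusted p = 0.23, edgeR). The rise on withdrawal was 0.89 on the log2 scale (SE 0.12, 95% interval 0.62 to 1.16, edgeR adjusted p = 0.00045), from 39.6 ± 7.45 to 72.6 ± 5.79 CPM (SD, n = 3). It passed in 21 of 21 alternative analyses.

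Wasf2 (chr4:133130505-133199756, plus strand) encodes WAVE2, the broadly expressed form that drives lamellipodia. Its CPM were 169, 185 and 182 in self-renewing, 112, 131 and 151 in withdrawn, and 137, 153 and 137 in CK666-treated cells. The self-renewing libraries were the highest 3 of the 9. Wasf2 fell by 0.45 on the log2 scale on withdrawal (SE 0.12, edgeR adjusted p = 0.0126). The call was lost in 4 of 21 alternatives: without withdrawn replicate 1 (adjusted p = 0.082), without withdrawn replicate 2, without all replicate 2 libraries (adjusted p = 0.11) and without the replicate block (adjusted p = 0.073, edgeR).

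Wasf3 (chr5:146384985-146473615, plus strand) encodes WAVE3. Its CPM were 71.1, 98.6 and 103 in self-renewing, 82.5, 77.9 and 64.1 in withdrawn, and 113, 107 and 98.9 in CK666-treated cells. The self-renewing and withdrawn groups overlapped, and the withdrawn libraries all lay below the CK666-treated ones, with Wasf3 the 1 member of 10 that did not overlap between these groups, against 16.5% of all genes. The withdrawal estimate was -0.28 (SE 0.17, edgeR adjusted p = 0.21), but -0.49 (adjusted p = 0.0085) without replicate 1. The CK666 estimate was 0.51 (SE 0.16, 95% interval 0.14 to 0.88), higher in 3 of 3 pairs, with an unadjusted p of 0.0122 and an adjusted p of 0.13 by edgeR. It passed in 2 of 21 alternatives, both without a replicate 1 library: adjusted p = 0.022 without replicate 1 and 0.0144 without the self-renewing one (edgeR).

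**Figure D2:**
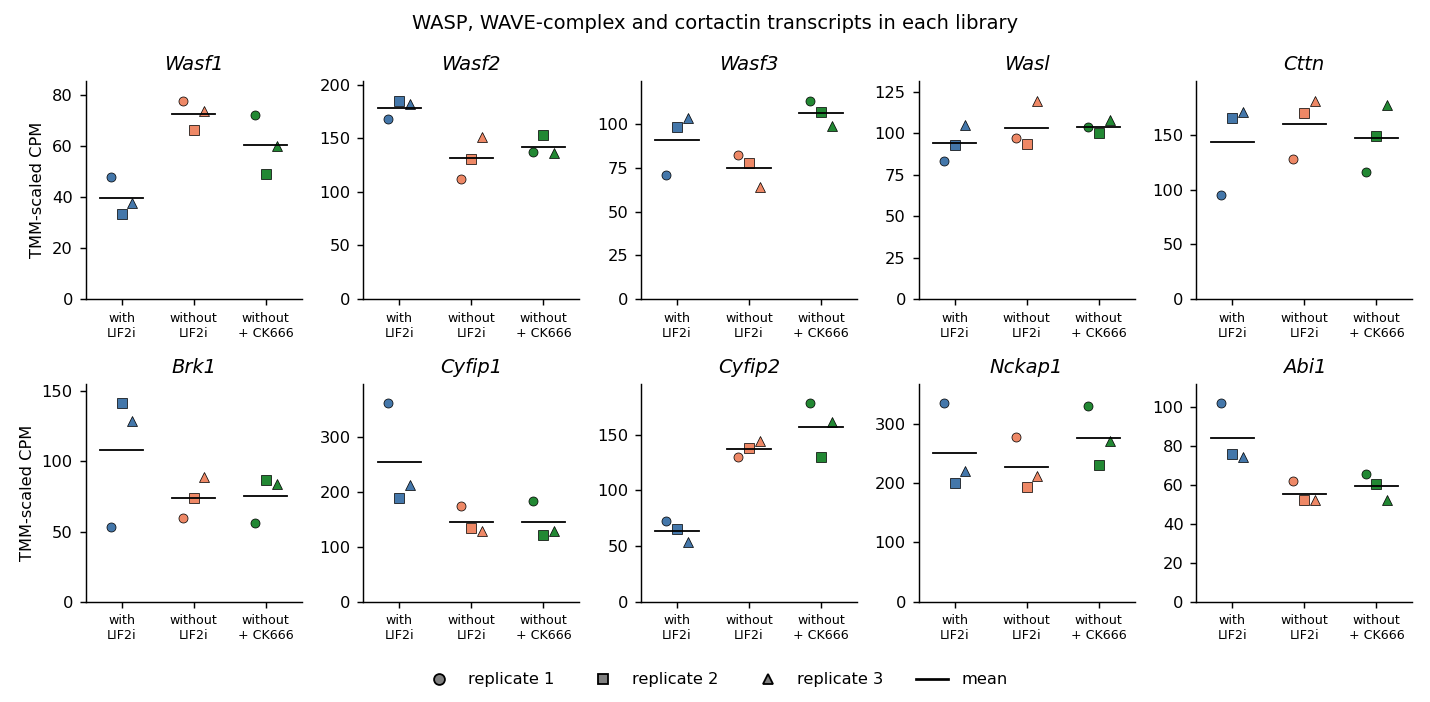
CPM after TMM scaling (y axis) of each activator gene in the 9 libraries, with 1 point per library and the group mean. Cyfip2 and Wasf1 are lowest in the self-renewing libraries, and Cyfip1 is highest in self-renewing replicate 1 at 362 CPM.

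Levels of different genes were compared per length, in TPM. Within the summed TPM of the 3 WAVE genes, the share of Wasf1 was 24.1%, 18.7% and 20.8% in self-renewing, 43.4%, 38.6% and 40.6% in withdrawn, and 35.9%, 27.7% and 34.1% in CK666-treated cells. By TPM the 3 groups did not overlap, and the CK666-treated libraries lay between the other groups. By CPM, not divided by length, the Wasf1 share reached 16.6% in self-renewing libraries and ran from 15.9% to 22.3% in CK666-treated ones, which overlapped. The mean share of Wasf1 was 19.7 percentage points higher in withdrawn than in self-renewing cells, and 8.28 points lower in CK666-treated than in withdrawn cells (a difference of -8.28). Each difference had an exact two-sided permutation p of 0.1, the smallest that 3 libraries against 3 allow. The share of Wasf3 was 7.76 points higher in CK666-treated than in withdrawn cells (28.6% against 20.9%), with the same exact permutation p of 0.1. The mean share of Wasf2 was 54.3% in self-renewing, 38.3% in withdrawn and 38.8% in CK666-treated cells. Shares within a set add up to a whole, so they do not move independently.

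**Figure D3:**
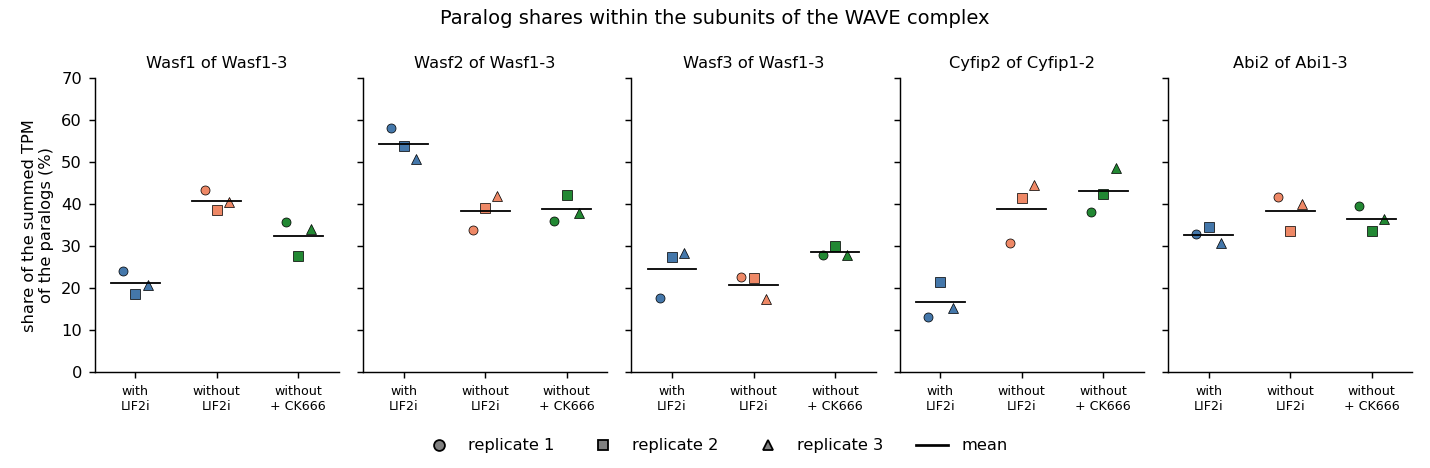
Share of each gene in the summed TPM of its paralog set (y axis, percent) per library and group. The Wasf1 and Cyfip2 shares are higher in the withdrawn and CK666-treated libraries than in the self-renewing ones.

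Cyfip1 and Cyfip2 encode the alternative Rac-binding subunits of the WAVE complex, also known as Sra-1 and PIR121, and moved in opposite directions. Cyfip2 (chr11:46193850-46312859, minus strand) had 72.5, 65.3 and 53.3 CPM in self-renewing, 130, 138 and 145 in withdrawn, and 178, 130 and 162 in CK666-treated cells. The 2 groups without LIF2i overlapped each other and lay above all self-renewing libraries. The rise on withdrawal was 1.12 on the log2 scale, or 2.17-fold (SE 0.15, edgeR adjusted p = 0.00038), and passed in 21 of 21 alternatives.

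Cyfip1 (chr7:55841745-55932602, plus strand) had 362, 189 and 212 CPM in self-renewing, 175, 134 and 129 in withdrawn, and 184, 121 and 130 in CK666-treated cells. Self-renewing replicate 1 was well above the other libraries, and self-renewing and withdrawn cells did not overlap. Cyfip1 fell by 0.76 on the log2 scale on withdrawal (SE 0.12, edgeR adjusted p = 0.0012), and by 0.58 (adjusted p = 0.0017) without replicate 1. Without the replicate block the adjusted p was 0.066. Of its exonic bases, 12.5% overlap Gm44616 and Nipa2 on the other strand, and the strand setting of the counting is not given in the sources used here, so those reads cannot be assigned with certainty. The share of Cyfip2 in the summed TPM of the pair was 13.2%, 21.5% and 15.4% in self-renewing, 30.8%, 41.5% and 44.6% in withdrawn, and 38.2%, 42.6% and 48.8% in CK666-treated cells. Self-renewing cells did not overlap the others (exact permutation p = 0.1, the smallest possible), and withdrawn and CK666-treated cells overlapped (exact permutation p = 0.5, a test that ignores the replicate numbers). Within replicate numbers the Cyfip2 share was higher with CK666 in 3 of 3 pairs.

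Abi1 (chr2:22940073-23040241, minus strand), the Abl-interactor subunit, had 102, 75.8 and 74.6 CPM in self-renewing, 62.3, 52.1 and 52.4 in withdrawn, and 65.6, 60.6 and 52.3 in CK666-treated cells. The self-renewing libraries were the highest 3. Abi1 fell by 0.59 on the log2 scale on withdrawal (SE 0.12, edgeR adjusted p = 0.0034), and the call was lost in 1 of 21 alternatives, limma on log2(TPM + 1). Of its exonic bases, 4.81% overlap Pdss1 on the other strand. Its paralog Abi2 held 33.0%, 34.6% and 30.8% of the summed TPM of Abi1, Abi2 and Abi3 in self-renewing, 41.8%, 33.7% and 40.0% in withdrawn, and 39.6%, 33.6% and 36.6% in CK666-treated cells, with overlap between all groups. This overlap between self-renewing and withdrawn cells depended on the quantity. From CPM the Abi2 share was 42.0% to 46.6% in self-renewing and 50.2% to 56.4% in withdrawn cells, and from the TPM of protein-coding transcripts alone 32.4% to 41.7% and 42.0% to 47.7%, without overlap in either. The retained-intron transcripts Abi1-213 and Abi1-214 held up to 29.9% of the Abi1 TPM in single libraries.

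Abi1 is also shown by its promoter, because LIF signals through STAT3 and this was the only one of the 7 members with a RefSeq promoter entry (GRCm38.p6) that held a STAT-type TTCNNNGAA match, read on both strands. The window is chr2:23040192-23040491 on the minus strand, from 250 bases before to 50 after the start, and capitals mark the match, at base 141 of the window.
Abi1 promoter: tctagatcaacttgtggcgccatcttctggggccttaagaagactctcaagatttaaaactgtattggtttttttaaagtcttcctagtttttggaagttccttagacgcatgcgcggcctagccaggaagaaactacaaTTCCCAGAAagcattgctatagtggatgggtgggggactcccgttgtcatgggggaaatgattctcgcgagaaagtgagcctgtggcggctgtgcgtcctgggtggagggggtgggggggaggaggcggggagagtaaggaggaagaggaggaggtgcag
Of 32851 promoters of this length, 8.30% hold TTCNNNGAA. The other motifs searched were the CArG box (1.63% of promoters), the TCF/LEF motif CTTTGAT (3.73%) and the ETS motif CCGGAAG (8.86%). Wasl held CCGGAAG in 2 overlapping matches, which are the 2 strands of one site, and Brk1, Cyfip2, Wasf1, Wasf2 and Wasf3 held none of the 4. A match is a description of the letters, and no binding was measured. LIF, PD0325901 and CHIR99021 were withdrawn together, so their parts in the fall of Abi1 cannot be told apart.

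The remaining WAVE complex subunits were not called. Nckap1 (chr2:80500512-80581380, minus strand), the scaffold that pairs with Cyfip, had 334, 200 and 220 CPM in self-renewing, 277, 193 and 211 in withdrawn, and 330, 230 and 271 in CK666-treated cells. All 3 groups overlapped, and replicate 1 was the highest library in each. The withdrawal estimate was -0.13 (SE 0.11, edgeR adjusted p = 0.37), and -0.03 (adjusted p = 0.84) without replicate 1. The CK666 estimate was 0.29 (95% interval 0.04 to 0.53, edgeR adjusted p = 0.18), higher in 3 of 3 pairs. Brk1 (chr6:113604772-113616951, plus strand), the smallest subunit and with a mean effective length of 835 bases the shortest of the 10, had 53.1, 141 and 129 CPM in self-renewing, 59.8, 73.7 and 88.8 in withdrawn, and 56.3, 87.0 and 83.7 in CK666-treated cells. Replicate 1 was the lowest library of each group. The Brk1 withdrawal estimate was -0.45 (SE 0.19, adjusted p = 0.085, edgeR) and -0.71 (adjusted p = 0.0017) without replicate 1. With an effective length offset the Brk1 log2 fold change was -0.43 (adjusted p = 0.13, edgeR).

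Wasl and Cttn were also not called in any comparison. Wasl (chr6:24613805-24665009, minus strand) had 83.5, 92.8 and 105 CPM in self-renewing, 96.9, 93.5 and 120 in withdrawn, and 104, 99.9 and 108 in CK666-treated cells, which all overlapped. Its withdrawal estimate was 0.14 (SE 0.11, edgeR adjusted p = 0.36). The TPM of Wasl is less certain than its CPM: the 448-base processed transcript Wasl-203 was assigned 41.2% to 51.9% of it in the replicate 1 libraries and at most 18.2% in the others. Cttn (chr7:144435733-144471009, minus strand) had 95.7, 166 and 171 CPM in self-renewing, 128, 171 and 182 in withdrawn, and 117, 150 and 178 in CK666-treated cells, again overlapping. Its withdrawal estimate was 0.18 (SE 0.12, adjusted p = 0.25, edgeR), but -0.10 with an effective length offset.

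CK666-treated cells were also set against self-renewing cells, a comparison that shares its libraries with the other 2. Here 4 of the 10 members were called by edgeR (36.9% of all genes), 2 upwards (19.8% of genes) and 2 downwards (17.1%), and 5 did not overlap (37.3%). In CK666-treated cells the summed TPM of the fibroblast markers was 14.6 to 24.4, below all withdrawn and above all self-renewing libraries, that of the trophoblast markers 120 to 382, of the endoderm markers 12.7 to 26.7, of the mesoderm markers 2.71 to 5.81 and of the neural markers 86.5 to 128. The part of these cells in either CK666 comparison was not tested. Cyfip2 rose by 1.30 (SE 0.15, adjusted p = 0.00020) and Wasf1 by 0.61 (SE 0.12, adjusted p = 0.0041) on the log2 scale by edgeR. Cyfip1 fell by 0.78 (SE 0.12, adjusted p = 0.0012) and Abi1 by 0.49 (SE 0.12, adjusted p = 0.0096). Without replicate 3, the calls of Wasf1 (adjusted p = 0.079) and Abi1 (adjusted p = 0.11) were lost (edgeR). Wasf2 did not overlap but its estimate of -0.33 missed the threshold (adjusted p = 0.051, edgeR). Without the replicate block, Cyfip2 alone passed, 1 of 10 members, against 20.2% of all genes. The CK666 estimates against withdrawn controls had 95% intervals that bound what could have been missed: -0.55 to -0.01 for Wasf1, -0.15 to 0.50 for Cyfip2, -0.41 to 0.43 for Brk1 and -0.30 to 0.25 for Cyfip1. Of the 10 members, 3 had an unadjusted p under 0.05 against CK666 (Wasf3, Nckap1 and Wasf1), where 19.7% of all genes did.

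Transcript choice was read from the authors' estimated TPM of single transcripts and is given as a description, with no test. Cttn-202 was compared with Cttn-201 for wholly coding exons only. Cttn-201 lacks exon 11 of 18 of Cttn-202, which spans chr7:144450978-144451088 on the minus strand. It has 111 bases, or 37 codons, and cortactin carries tandem actin-binding repeats of 37 residues. It is printed because Cttn-202 gained on Cttn-201 in both groups without LIF2i.
Cttn-202 exon 11: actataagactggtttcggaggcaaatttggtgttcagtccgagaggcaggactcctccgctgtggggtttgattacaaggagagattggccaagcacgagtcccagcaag
The share of Cttn-202 in the TPM of the pair was 64.2%, 56.1% and 50.1% in self-renewing, 70.9%, 83.0% and 68.5% in withdrawn, and 78.1%, 86.7% and 84.8% in CK666-treated cells. Self-renewing libraries were the lowest 3, and the withdrawn and CK666-treated groups overlapped, with the share higher under CK666 in 3 of 3 pairs. The means were 56.8% ± 7.12, 74.1% ± 7.78 and 83.2% ± 4.51 (SD, n = 3), and leaving out 1 library at a time kept the withdrawal difference between 12.9 and 21.1 points. The split rests on the authors' assignment of reads between transcripts, and these leave-out values were added after the data had been seen. The pair leaves out the processed transcripts Cttn-203 (336 bases) and Cttn-206 (362 bases). Of the Cttn TPM, Cttn-203 was assigned 17.2% to 33.0% in self-renewing, 8.18% to 12.3% in withdrawn and 0% to 21.1% in CK666-treated libraries. Cttn-206 was assigned 11.1% to 16.7%, 9.85% to 17.0% and 6.20% to 11.4% in the same groups.

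Cyfip1 has a comparable choice between 2 alternative coding exons, which are printed for their sequence difference. Cyfip1-202 carries the first, exon 16 of 31 at chr7:55897825-55897972 (148 bases, plus strand), and Cyfip1-203 the second, exon 17 of 32 at chr7:55898238-55898391 (154 bases, plus strand).
Cyfip1-202 exon: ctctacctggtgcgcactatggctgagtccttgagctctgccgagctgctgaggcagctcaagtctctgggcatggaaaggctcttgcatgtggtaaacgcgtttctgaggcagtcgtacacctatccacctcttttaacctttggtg
Cyfip1-203 exon: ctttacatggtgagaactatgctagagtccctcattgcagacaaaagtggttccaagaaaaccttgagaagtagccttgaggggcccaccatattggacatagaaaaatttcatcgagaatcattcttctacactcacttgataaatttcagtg
The exons matched at 56.5% of 170 aligned columns. The share of Cyfip1-202 in the TPM of the pair was 37.7%, 20.0% and 20.7% in self-renewing, 22.9%, 12.1% and 12.9% in withdrawn, and 31.7%, 17.2% and 34.9% in CK666-treated cells. The groups overlapped, and replicate 1 was the highest library in the first 2 groups. The share was lower in withdrawn than in self-renewing cells in 3 of 3 pairs and higher with CK666 than in withdrawn cells in 3 of 3. The share of Cyfip2-204, a shorter coding transcript of Cyfip2, in its pair with Cyfip2-202 was 32.7%, 24.6% and 23.9% in self-renewing, 0.00%, 12.8% and 11.4% in withdrawn, and 9.76%, 21.7% and 24.4% in CK666-treated cells. Self-renewing libraries lay above the withdrawn ones without overlap, and CK666-treated cells were above withdrawn cells in 3 of 3 pairs. For Wasf1-201 against Wasf1-202, the mean share was 8.61%, 14.0% and 13.5% in the 3 groups. The pairs are the most abundant coding transcripts of genes picked after their values were seen.

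**Figure D4:**
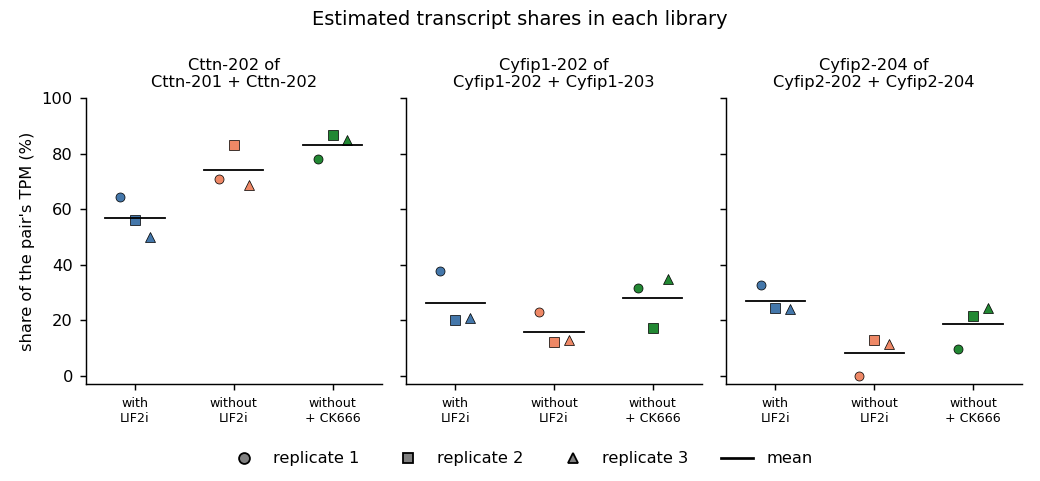
Share of 1 transcript in the TPM of its pair (y axis, percent) per library and group for 3 pairs. Cttn-202 ranges from 50.1% to 64.2% in self-renewing and from 78.1% to 86.7% in CK666-treated libraries.

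The other parts of the pathway were taken as lists. Of the members' paralogs and the cortactin-binding proteins Cttnbp2 and Cttnbp2nl, 6 of 7 passed the filter: on withdrawal 2 rose and 2 fell (median -0.35), where 40.7% of all genes were called. The counts called in the lists that follow stand beside the same 40.7% for withdrawal, 2.05% for CK666 and 36.9% for CK666-treated against self-renewing cells, and are given as descriptions. Was, the blood cell form of WASP, fell (adjusted p = 0.0015, edgeR), with 79, 56 and 26 counts in self-renewing, 4, 3 and 3 in withdrawn, and 12, 6 and 1 in CK666-treated libraries, so that withdrawn libraries were at or near the detection floor of 3 counts and no fold is given. The summed TPM of 6 blood cell markers was 77.8 to 182, 26.0 to 39.5 and 16.7 to 25.4 in these groups, with Ptprc, Tyrobp and Hbb-bs under 1 TPM in every library. The 2 blood cell markers tested went opposite ways on withdrawal: Laptm5 fell by 4.87 and Coro1a rose by 2.41 on the log2 scale (edgeR). Nckap1l fell by 0.68, Cttnbp2 rose by 1.54 and Cttnbp2nl by 0.74. These calls passed in 13, 11 and 14 of 21 alternatives, and all 3 were lost without the replicate block and without replicate 2 or 3 (edgeR adjusted p = 0.13, 0.063 and 0.35 without the block). Among the alternatives, the log2 fold change of Cttnbp2 ran from 0.55 to 1.90 and that of Cttnbp2nl from 0.46 to 1.13. Was held 4.82% of the summed TPM of Was and Wasl in self-renewing cells and 0.281% in withdrawn cells, so Wasl was the main form in every group.

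Of 8 other nucleation-promoting factor genes (the WASH complex, WHAMM, JMY and Nckipsd), 1 rose and 1 fell on withdrawal, Jmy by 0.51 and Whamm, whose log2 change was -0.85 (edgeR). Whamm passed in 21 of 21 alternatives and Jmy in 15, and Jmy was lost without the replicate block (adjusted p = 0.16, edgeR) and without replicate 2 or 3. Of 3 WASP-interacting protein genes, which encode proteins that hold WASP in check, Wipf3 rose by 4.43 (adjusted p = 0.00020, edgeR), from 0.0491 to 1.83 CPM in self-renewing to 16.5 to 25.0 in withdrawn libraries. Self-renewing replicate 1 had 1 count, under the floor of 3 counts, against 35 and 26 in the others of its group, and alternatives gave log2 fold changes of 2.61 to 4.98. Of 22 upstream GTPase and adaptor genes, 4 rose and 6 fell, and the median was -0.04. Rac3 rose by 2.63 and Vav3 by 1.37 (adjusted p = 0.0034, edgeR), while Rac2 (-4.17) and Tiam1 (-2.07) fell. The Rac2 value ran from -4.48 to -2.46 among alternatives, and withdrawn libraries held 4, 7 and 5 Rac2 counts. Rac1 and Cdc42, the activators of WAVE and N-WASP, were not called, with estimates of 0.23 (adjusted p = 0.24) and -0.10 (adjusted p = 0.53) by edgeR. The withdrawn and self-renewing libraries did not overlap for Rac1, as for 40.7% of all genes, and overlapped for Cdc42. With CK666, Rac1 was lower in 3 of 3 pairs and without overlap, as for 16.5% of all genes. That estimate was -0.44 (95% interval -0.77 to -0.11, adjusted p = 0.14, edgeR), and the one for Cdc42 was -0.14 (adjusted p = 0.54).

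Of 9 genes on a list of inhibitors, debranchers and coronins, 3 rose and 2 fell on withdrawal. Coro2a rose by 3.05 and Coro1a by 2.41, and Coro2b fell by 3.02. Arpin, an inhibitor of Arp2/3, also fell (adjusted p = 0.0017, edgeR). The effect of each coronin on Arp2/3 was not tested. Of 9 Arp2/3 subunit genes, 1 rose (Arpc5, 0.84) and 1 fell (Actr2, -0.60), with a median of -0.03. The Arpc5 call was lost without replicate 2 and without replicate 3 (largest adjusted p = 0.077, edgeR). The Actr2 call was lost without the replicate block (adjusted p = 0.21, edgeR), and its libraries overlapped between the groups. Against CK666, all lists had 0 called genes except the list of inhibitors, debranchers and coronins and that of the subunits. On the former, Coro2b rose by 1.16 (adjusted p = 0.019, edgeR) and Coro1a fell by 1.07 (adjusted p = 0.043). Among the subunits, Arpc5 fell by 0.94 (adjusted p = 0.038, edgeR) and Arpc4 by 0.54 (adjusted p = 0.047). Coro2b passed in 13 of 21 alternatives, Arpc5 in 12, Coro1a in 10 and Arpc4 in 7. All 4 calls were lost without the replicate block (edgeR adjusted p = 0.35, 0.36, 0.36 and 0.65) and without replicate 2 or 3. The withdrawn and CK666-treated libraries overlapped for Arpc5 and Arpc4. The WASH, WHAMM and JMY list had a median of 0.34, with estimates from 0.14 to 0.44. Against self-renewing cells, CK666-treated cells had 7 of the 22 GTPase and adaptor genes higher and 7 lower, where 19.8% and 17.1% of all genes were. Of the 6 paralogs and cortactin-binding proteins tested, 1 was higher and 1 lower. The numbers higher and lower were 1 and 0 of 8 other nucleation-promoting factors and 2 and 0 of 3 WASP-interacting proteins. They were 2 and 2 of the 9 inhibitors, debranchers and coronins, and 0 and 2 of the 9 subunits.

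**Figure D5:**
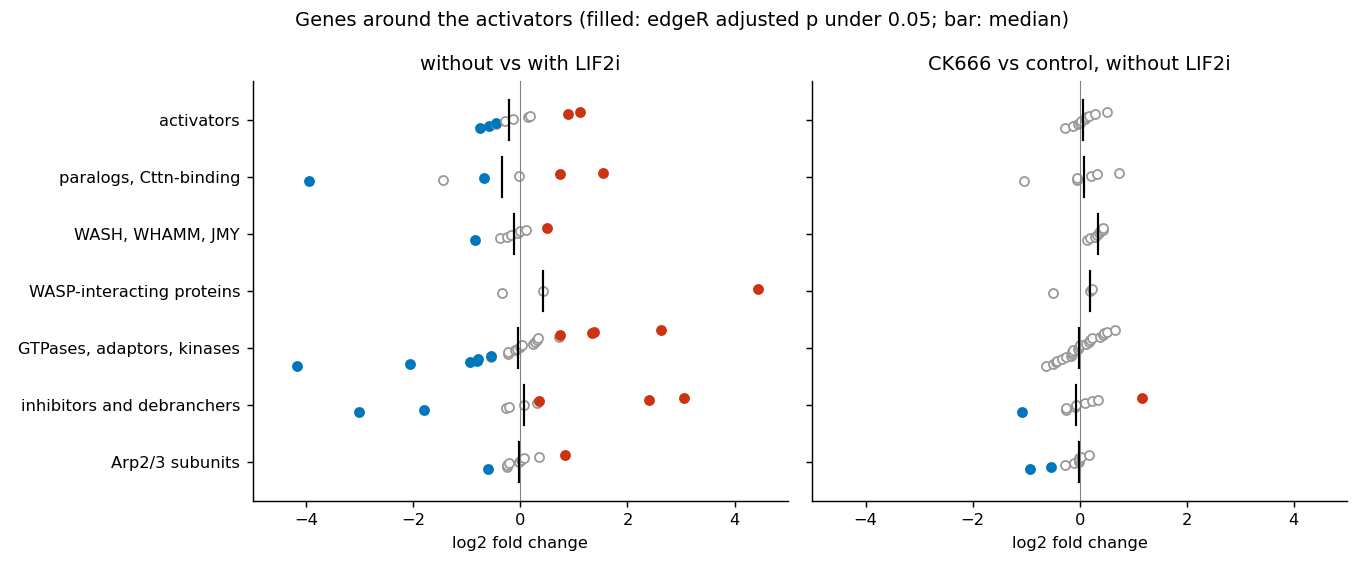
Log2 fold changes (x axis) of the genes in each pathway list (rows), with 1 point per gene, filled points for called genes and a bar at the list median. The left panel is withdrawal and the right panel CK666. Withdrawal spans from -4.17 for Rac2 to 4.43 for Wipf3, and CK666 has 4 called genes.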

How the data were processed

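Each of the 9 libraries was deposited as a table of 119414 transcripts. Per the file headers, the authors' tables hold estimated counts, TPM and effective length, another per-library column. The estimated counts are not normalised, and the deposited TPM values are per effective length and scaled to the same sum in each library. The submitters' processing notes name FastQC, cutadapt 1.8.1, kallisto and sleuth, and the builds GRCh38 and mm10, with no role or order. The transcript release and the strand setting are not given in the sources used here.

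Transcripts were matched to genes with GENCODE M21 (GRCm38): 116640 (97.7%) had a gene, and 2774 had none and were left out of library sizes and tests. For each gene the estimated counts of its transcripts were added up and rounded. The quasi-likelihood test of edgeR 4.0.16 (R 4.3.3) was used after TMM scaling and its filter on low counts. All 9 libraries entered 1 fit with the replicate number as a block (4 residual degrees of freedom), and calls were made at an adjusted p (Benjamini-Hochberg) under 0.05. The pairing is stated in the series' design text and follows the numbers in the titles. Deviations from group means correlated within a number in every pair of libraries (median r = 0.41, 0.30 to 0.65, 9 pairs), with values below 0 between replicate 1 and the others, a sign that centring on the mean of 3 libraries partly fixes. The 6 pairs of replicate 2 with replicate 3 correlated at 0.21 to 0.29. Replicates of a group gave a chi-square of 17.5 to 226 per gene, above counting noise. P-values measure the spread between these libraries, all of 1 cell line, and may include technical spread.

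At these depths the floor of 3 counts is 0.133 to 0.178 CPM, and floors cover counting error only. Shares within paralog sets were computed from TPM and tested by exact permutation. Promoters came from RefSeq, and exon sequences from the GENCODE M21 transcript sequences, cut by their GRCm38 exon coordinates. Alternatives were the fit with no block, DESeq2 1.42.0, limma 3.58.1 (voom, and log2(TPM + 1)), other scalings, filters and length corrections, and leaving out each library or replicate number. All 10 members are named, and from each other pathway list at most 4 called genes with the largest change per comparison, besides Rac1, Cdc42 and the cell type markers, which were named after their values were seen. The members and lists were chosen with earlier results of these data known. The fitting scripts were tested on simulated data.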

Additional observations from a re-analysis of the deposited data

How the results depend on the processing

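Without the replicate block, the paired structure is ignored: the genes called fell from 5967 to 3509 on withdrawal, from 300 to 0 for CK666 and from 5408 to 2966 for CK666-treated against self-renewing cells, and the members called from 5 to 3 and from 4 to 1 in the first and last of these. For CK666, genes called numbered 1136 with DESeq2, 535 with limma voom, 565 with every gene above 0 counts, 148 with an effective length offset and 26 with limma on log2(TPM + 1), where 42.3% of called genes were higher against 56.3% in the edgeR analysis reported. Leaving out 1 library or number gave 3099 to 6588 genes on withdrawal, 0 to 1811 for CK666 (1811 without replicate 1, 0 without replicate 3) and 2413 to 6129 in the last comparison. The members called were then 4 to 7, 0 to 1 and 2 to 6.

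Several estimates near 0 changed sign. For CK666, Wasl was -0.00319 with DESeq2, -0.00314 with RLE scaling, -0.00357 with only protein-coding transcripts and -0.000754 with log2(TPM + 1). Brk1 was -0.00454, -0.00440, -0.00311 and -0.0154 in the same 4, -0.000230 with library totals and -0.00289 with the length offset, and Cyfip1 was 0.00636 with that offset. Leaving out libraries gave -0.0627 to 0.0955 for Wasl, -0.154 to 0.180 for Brk1 and -0.137 to 0.0737 for Cyfip1. Cttn was -0.0998 with the length offset and -0.0732 with log2(TPM + 1) on withdrawal, and -0.33 and -0.32 in CK666-treated against self-renewing cells, where leaving out libraries gave -0.0459 to 0.151. From CPM not divided by length, the Wasf1 share difference was 13.1 points on withdrawal and 6.56 in the last comparison, and that of Cyfip2 27.9 and 31.3. The cause of these changes was not tested.

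Limits: 3 libraries per group of 1 cell line, unknown strand setting, and replicate 1 libraries with a different length profile.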

Other observations

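Cyfip2, the member with the largest change, was compared with 11720 protein-coding genes over the 9 libraries by Pearson correlation of log2 CPM, as a description. The genes most like it were Pcdhgc5 (r = 0.984), a member of the clustered protocadherins that share exons, so its counts are uncertain, Pm20d2 (r = 0.984) and Nr3c1 (r = 0.983), the glucocorticoid receptor gene. In all, 104 genes had r above 0.95, and the libraries share the 3 groups and the replicate numbers. On withdrawal the log2 fold changes were 1.22 for Pcdhgc5, 2.01 for Pm20d2 and 1.55 for Nr3c1.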
